A study of Mus musculus with 4 samples.

Results

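The 10 CC chemokine genes Ccl2, Ccl3, Ccl4, Ccl5, Ccl6, Ccl7, Ccl9, Ccl17, Ccl22 and Ccl21a were traced to their producing cells in single-cell RNA-seq of whole mouse lung, and their levels were compared between WT and ERG CKO libraries. The genes were taken from a named list, each had a row in the deposited count matrix, and together they made up 10 of its 20076 rows. All 10 had counts in the matrix. Both groups carried 2 floxed copies of Erg (ERG fl/fl), both received tamoxifen (5 injections of 0.5 mg, 1 a day), and the lungs were taken after a further 90 days. WT mice carried no Cre, whereas ERG CKO mice carried CDH5-CreER(T), a tamoxifen-inducible Cre recombinase driven by the promoter of the VE-cadherin gene and therefore active in endothelial cells (ECs). Each group was 2 libraries, each from 1 mouse per the study's methods, which give male and female mice on a C57/BL6 background. Their age at injection was not given in the sources used here.

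CC chemokines are small secreted proteins that guide leukocytes through G protein-coupled receptors. In the lung, macrophages, monocytes, dendritic cells and lymphocytes release inflammatory members such as Ccl2, Ccl3, Ccl4 and Ccl5, and lymphatic endothelium makes Ccl21a, which draws Ccr7-bearing dendritic cells and T cells into lymph vessels. Ccl17 and Ccl22 are ligands of Ccr4 and are typical products of dendritic cells.

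The libraries WT 1, WT 2, ERG CKO 1 and ERG CKO 2 held 2264, 2150, 3097 and 1852 cells, with medians of 4611 to 4899 UMIs per cell, where a UMI is a molecular tag that counts each captured RNA once. Levels are given as CPM, the counts of a gene scaled to a common total of UMIs over the cells in question. Cells were clustered without the chemokine genes, and each class name below stands for clusters that are like that cell type by their markers. Between 26.8% and 36.4% of the cells of a library fell in no finely named class. The count of Erg was examined first, since it is the targeted gene. In the endothelial class Erg lay at 85.5 and 88.1 CPM in WT and at 104 and 82.4 CPM in ERG CKO, and in general capillary (gCap) ECs its log2 fold change was 0.16 (SE 0.16, edgeR adjusted p = 0.789). The values in vein ECs (-0.40, SE 0.42, edgeR adjusted p = 0.883) and aCap ECs (0.063, SE 0.31, edgeR adjusted p = 0.945) were not called either, and the endothelial levels of the ERG CKO libraries lay on either side of WT, so Erg counts did not check the labels. The matrix holds 1 count per gene, so a transcript without the deleted part cannot be told from a whole one, and every direction below is between labels.

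The members lie in 3 places of the mouse genome (coordinates of GRCm38). Chromosome 11 holds 7 of them. Ccl2 (chr11:82035571-82037453, plus strand) is followed by Ccl7 (chr11:82045712-82047525, plus strand) after a gap of 8258 bases. Ccl5 (chr11:83525778-83530518), Ccl9 (chr11:83572919-83578636), Ccl6 (chr11:83587882-83593087) and Ccl3 (chr11:83647844-83649355) are on the minus strand, and Ccl4 (chr11:83662584-83664683) is on the plus strand, 13228 bases from Ccl3. Ccl22 (chr8:94745590-94751699) and Ccl17 (chr8:94810453-94812036) are both on the plus strand of chromosome 8, 58753 bases apart. Ccl21a (chr4:42772860-42773993, minus strand) has near-identical copies, so its counts carry that uncertainty. Of these copies, Ccl21b had 1 UMI in all, and the predicted copy Gm21541 had 21 and 4 UMIs in WT and 0 in both ERG CKO libraries.

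Because ERG is an ETS factor, whose family binds a GGAA core, the 250 bases before the RefSeq start (GRCm38.p6) are shown for the member of lymphatic endothelium and for the pair of dendritic cell members. They are printed from 5′ to 3′ on the strand of the gene. Capitals mark GGAAG or its reverse complement CTTCC, and GGGACTTT (an NF-kB-type motif) or its reverse complement AAAGTCCC. Ccl21a is at chr4:42773992-42774241 on the minus strand, Ccl17 at chr8:94810203-94810452 and Ccl22 at chr8:94745434-94745683, both on the plus strand.
Ccl21a: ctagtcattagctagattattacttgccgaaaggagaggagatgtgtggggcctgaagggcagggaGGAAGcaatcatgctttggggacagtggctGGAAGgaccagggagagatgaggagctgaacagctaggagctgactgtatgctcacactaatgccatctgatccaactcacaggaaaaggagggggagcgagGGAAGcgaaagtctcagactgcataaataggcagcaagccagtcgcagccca
Ccl17: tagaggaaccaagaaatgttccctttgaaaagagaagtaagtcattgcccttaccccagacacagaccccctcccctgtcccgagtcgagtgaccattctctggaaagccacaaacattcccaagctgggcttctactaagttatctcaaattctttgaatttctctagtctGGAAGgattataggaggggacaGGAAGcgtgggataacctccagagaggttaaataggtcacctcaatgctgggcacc
Ccl22: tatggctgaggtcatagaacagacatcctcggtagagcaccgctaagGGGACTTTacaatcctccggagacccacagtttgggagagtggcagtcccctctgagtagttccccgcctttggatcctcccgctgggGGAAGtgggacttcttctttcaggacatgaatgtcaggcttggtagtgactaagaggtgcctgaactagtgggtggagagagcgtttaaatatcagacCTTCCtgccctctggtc
GGAAG occurred 3 times before Ccl21a and 2 times each before Ccl17 and Ccl22. It is a common string, present in 64.1% of 32851 RefSeq promoters of this length. GGGACTTT occurred once, before Ccl22, and was present in 1.21% of the promoters. These are letter matches and not binding sites. RefSeq promoters were at hand for 6 of the 10 members, not for Ccl2, Ccl4, Ccl5 and Ccl7.

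Most of the 10 genes had 1 or 2 leading sources. Lymphatic ECs led for Ccl21a, effector or memory T cells and NK cells for Ccl5, and type 2 conventional dendritic cells for Ccl17 and Ccl22. A rare class with mast cell and basophil markers led for Ccl3, Ccl4, Ccl6 and Ccl9 by mean level, although alveolar macrophages held most Ccl6 UMIs. Ccl2 and Ccl7 were highest in interstitial macrophages by the mean over libraries, although in WT the mean Ccl2 level was higher in type 2 conventional dendritic cells. Across the 29 named classes the patterns of Ccl17 and Ccl22 (Pearson r = 0.95 of log2 mean CPM with 10 added) and of Ccl3 and Ccl4 (r = 0.93) were the most alike among pairs of members, where all points share the same libraries. The pair Ccl2 and Ccl7, neighbours on chromosome 11, reached 0.60.

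**Figure D1:**
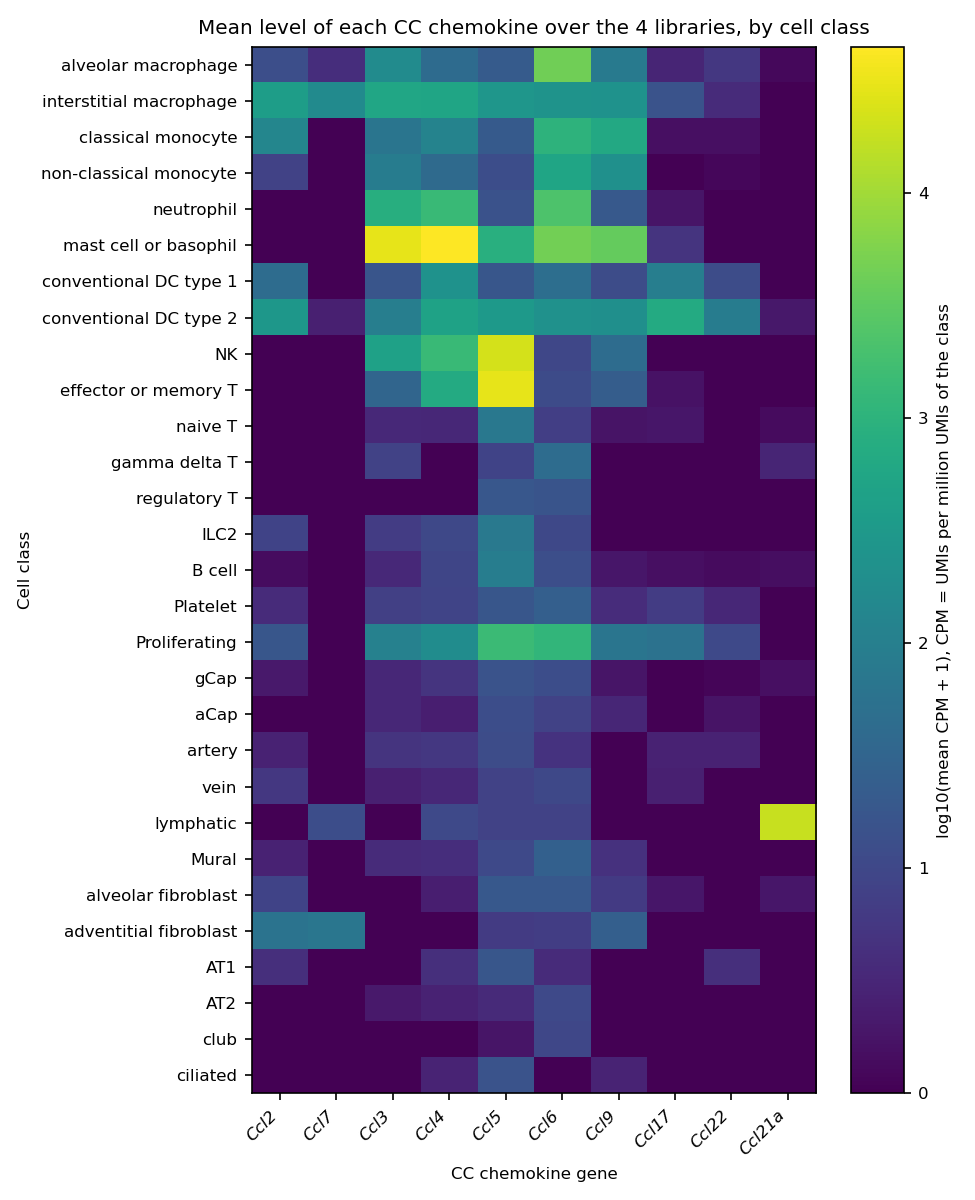
Mean level of each CC chemokine gene (columns) over the libraries that hold cells of a named class (rows), with colour as log10 of mean CPM with 1 added. The mast cell or basophil class stands out for Ccl3, Ccl4 and Ccl9, lymphatic ECs for Ccl21a, and effector or memory T cells and NK cells for Ccl5.

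**Figure D2:**
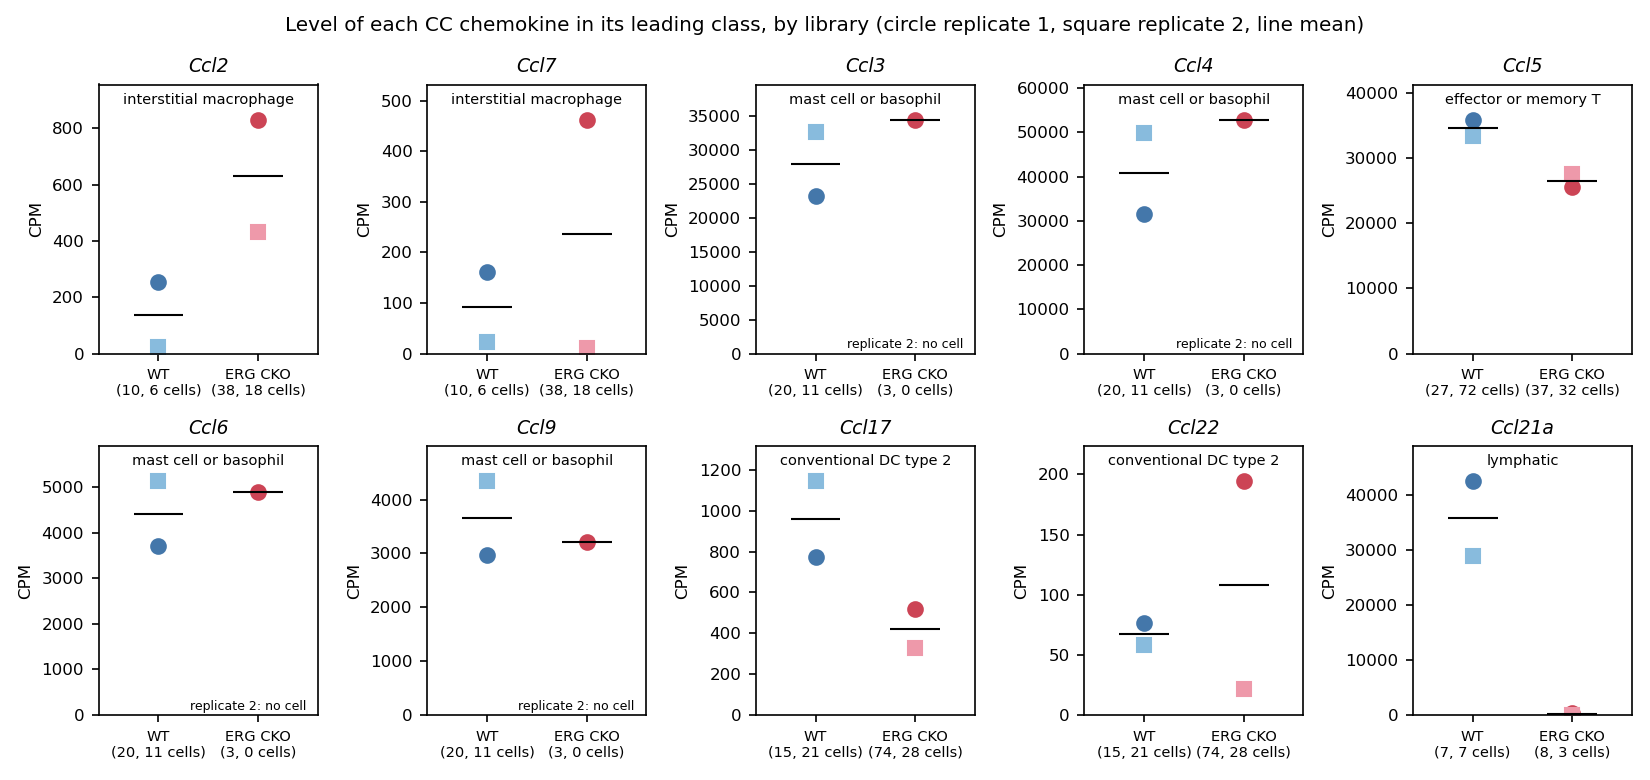
CPM of each CC chemokine gene in its leading class, on a linear axis from 0 that differs between panels, with 1 point per library (circles replicate 1, squares replicate 2), lines at the mean and the number of cells below. Ccl21a in lymphatic ECs is the member whose groups lie farthest apart, at 42467 and 28907 CPM in WT and at 385 and 0 CPM in ERG CKO.

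Counts summed per library were tested in 12 classes with at least 20 cells in every library (edgeR quasi-likelihood test, adjusted over all genes of a class). The low-count filter left 28 tests of 6 members, and 0 of them passed the threshold, an adjusted p of 0.05 or less. The lowest adjusted p was 0.128, 9 of the 28 had an unadjusted p under 0.05 (5395 of 64836 tests over all genes, or 8.32%), and DESeq2, which tested 86, called 0. As background, edgeR called 10.9% of genes in aerocytes (aCap ECs), 1.76% in gCap ECs, 0.19% in vein ECs, 0.103% in B cells, 0.0631% in naive T cells, 0.0206% in classical monocytes and 0.0149% in non-classical monocytes. In alveolar macrophages, neutrophils, NK cells, effector or memory T cells and platelets the share called was 0.0%. The log2 fold changes of the members were above 0 in 16 and below 0 in 12 tests, with a median of 0.13 against 0.0019 for all genes tested. In the sums over all cells of a library, all 10 members were tested and 0 were called, 4 of them with an unadjusted p under 0.05, against 0.0% of 14154 genes called and 1077 (7.61%) with an unadjusted p under 0.05. DESeq2 called 3 of these 10, Ccl21a, Ccl3 and Ccl4, all lower in ERG CKO, where it called 0.733% of genes. In such whole-lung sums, fewer cells of a type and less RNA per cell cannot be told apart.

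**Figure D3:**
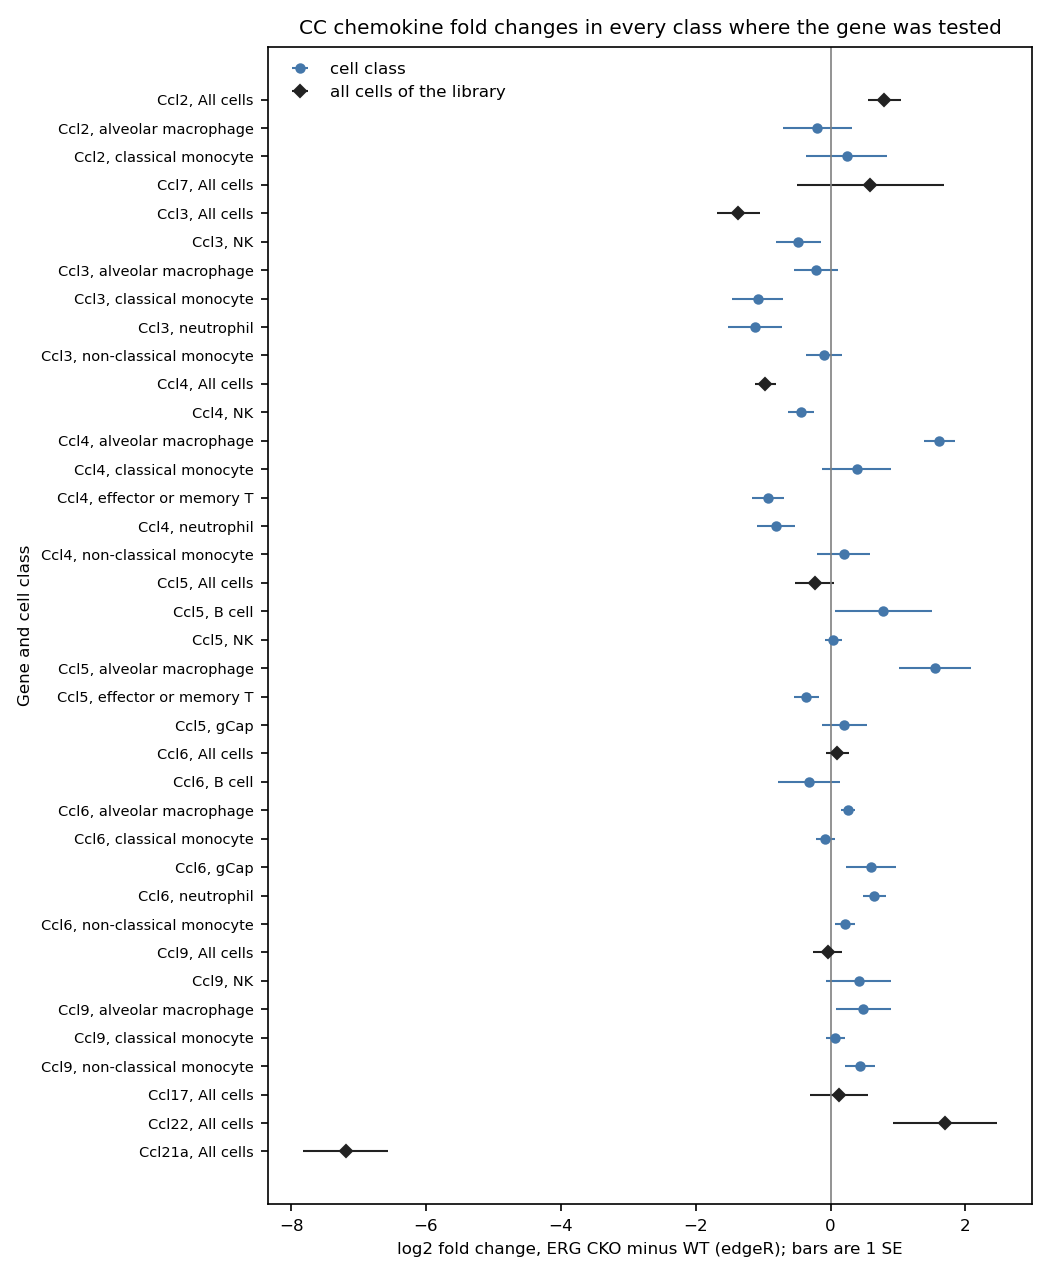
Log2 fold change (ERG CKO minus WT, edgeR) of the members in tested cell classes and in whole-lung sums, with bars of 1 standard error. Ccl21a in whole-lung sums lies farthest from 0, at -7.19, and Ccl4 in alveolar macrophages is the highest value in a class, at 1.61.

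Ccl21a, the ligand that leads Ccr7-bearing cells into lymph vessels, was abundant in lymphatic ECs of WT lungs and nearly undetected in those labelled ERG CKO. The lymphatic class held 7, 7, 8 and 3 cells in WT 1, WT 2, ERG CKO 1 and ERG CKO 2. Ccl21a gave 1108 and 631 UMIs in WT compared with 13 and 0 UMIs in ERG CKO. These are 42467 and 28907 CPM in WT against 385 and 0 CPM in ERG CKO, so the groups did not overlap. The median cell had 145 and 51 Ccl21a UMIs in WT and 0.5 and 0 in ERG CKO. The highest ERG CKO cell had 7 UMIs, and the highest WT cells had 326 and 336. With the libraries of a group pooled, the level was 36290 CPM in WT and 286 CPM in ERG CKO, or 0.788% of WT. In ERG CKO 2 the count of 0 over its 3 cells allows up to 257 CPM, for counting error only.

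The same cells carried other lymphatic markers in all 4 libraries. Prox1, the transcription factor that defines lymphatic ECs, had 17, 10, 34 and 5 UMIs in WT 1, WT 2, ERG CKO 1 and ERG CKO 2 in 6, 5, 7 and 3 cells. Mmrn1, a secreted glycoprotein of lymphatic endothelium, was found in every cell, with 125, 152, 127 and 23 UMIs. Flt4, the receptor of VEGF-C, had 23, 33, 41 and 2 UMIs. Per UMI not all markers were even. Mmrn1 lay at 4791 and 6963 CPM in WT and 3762 and 1969 CPM in ERG CKO, and Fgl2 at 1648 and 2199 CPM in WT and 622 and 428 CPM in ERG CKO, both without overlap. Reln lay at 1188 and 1695 CPM in WT and 118 and 257 CPM in ERG CKO, and Lyve1 had 49 and 51 UMIs in WT compared with 13 and 0 in ERG CKO. Pdpn lay at 230 and 825 CPM in WT and 178 and 171 CPM in ERG CKO, from 6, 18, 6 and 2 UMIs. Nts went the other way, with 9 and 4 UMIs in WT compared with 44 and 35 in ERG CKO. These Nts UMIs came from 2 and 3 cells in WT and from 3 and 1 cells in ERG CKO. These marker values describe the cells that the class was built from and were not tested.

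With 3 to 8 cells per library no fit was made within the lymphatic class. In the broader endothelial class, Ccl21a lay at 411 and 206 CPM in WT and 2.82 and 0 CPM in ERG CKO, which is a log2 fold change of -7.46 (SE 0.60, edgeR adjusted p = 0.0036, where 3.08% of genes were called). Summed over all cells, it was at 87.1 and 49.995 CPM in WT and 0.751 and 0 CPM in ERG CKO (log2 fold change -7.19, SE 0.63, edgeR adjusted p = 0.0841), and it was called with DESeq2 (adjusted p = 0.023) and when either ERG CKO library was left out (adjusted p = 0.014 and 0.018). Without WT 1 or WT 2 the whole-lung value was not called (edgeR adjusted p = 0.478 and 0.263). Because 1 group includes a library at 0, the fitted size of these changes depends on the prior count and is no bound (-12.80 without ERG CKO 1 and -6.49 without ERG CKO 2 in whole-lung sums). The gene passed the low-count filter through the WT libraries, so these tests add little to the counts themselves. Outside the class, 150 of the 1281 UMIs of WT 1 were in 1 myeloid cell. Among T cells, which should lack the gene, 0.182% had a UMI (median 6034.5 UMIs), against 68.0% of lymphatic cells (median 3880 UMIs).

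A second, looser way of picking cells took all those with UMIs of at least 3 of 8 lymphatic markers. There were 22, 20, 52 and 8 of them in the order above, with 1275 and 631 Ccl21a UMIs in WT and 11 and 0 in ERG CKO. Prox1 was found in 9, 5, 10 and 4 of them, at median depths of 6899.5, 6395, 12404.5 and 10494 UMIs. By this marker the set was less purely lymphatic than the class. It largely recounts the same Ccl21a UMIs (631 in WT 2 both ways), so it is no separate support. The lymphatic class made up 0.309% and 0.326% of cells in WT compared with 0.258% and 0.162% in ERG CKO, with exact 95% binomial intervals that overlap.

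**Figure D4:**
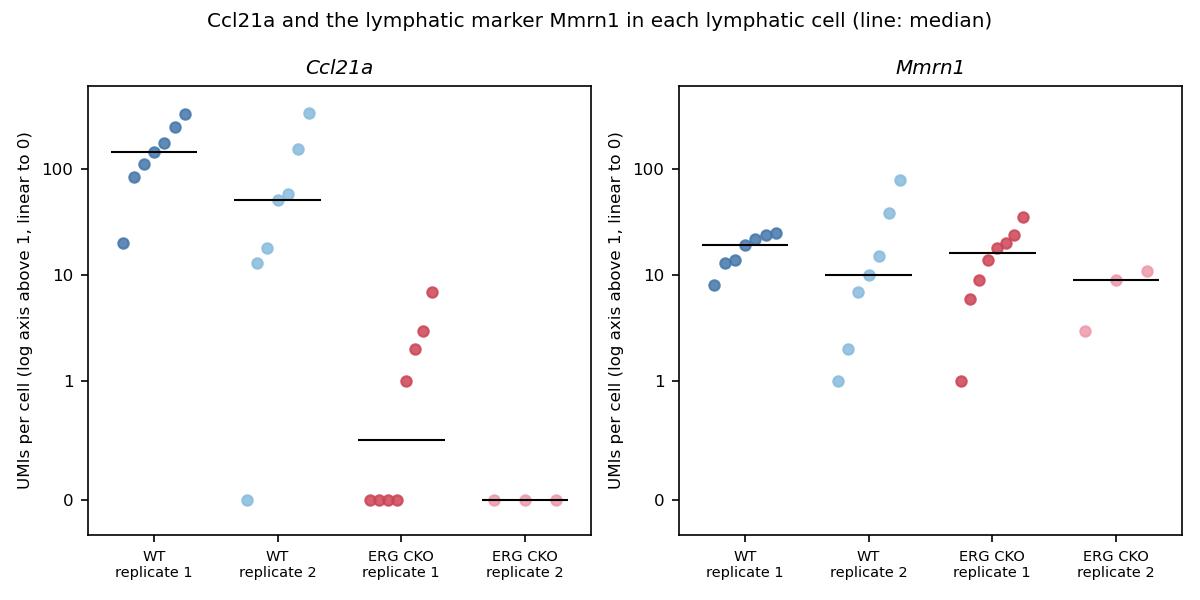
UMIs of Ccl21a (left) and of the lymphatic marker Mmrn1 (right) in each lymphatic cell by library, where points are cells, lines are medians and the axis is logarithmic above 1. For Ccl21a, WT cells reach 326 and 336 UMIs, whereas the cells of ERG CKO 1 stay at or below 7 and those of ERG CKO 2 are all at 0, and for Mmrn1 every cell has a UMI.

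Ccl3 and Ccl4, the macrophage inflammatory proteins that attract leukocytes, came largely from the mast cell or basophil class in WT lungs. All 34 cells of this class had UMIs of both genes. Ccl3 lay at 23195, 32535 and 34425 CPM in WT 1, WT 2 and ERG CKO 1, and ERG CKO 2 had no cell of the class. Ccl4 lay at 31613, 49838 and 52902 CPM in the same libraries. The level per cell of the 3 ERG CKO 1 cells was therefore not below that of WT.

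The number of such cells did differ. The class held 20 cells in WT 1, 11 in WT 2, 3 in ERG CKO 1 and 0 in ERG CKO 2. These are 0.883% (exact 95% binomial interval 0.54 to 1.36) and 0.512% (0.256 to 0.914) of the WT libraries, and 0.0969% (0.02 to 0.283) and 0 of 1852 cells (0 to 0.199) of ERG CKO. A limit of 3 counts allows this last library a share of up to 0.162%. The groups did not overlap, but with 2 libraries against 2 the exact permutation test cannot go below its value here, 0.333 (two-sided). Of its markers, Cyp11a1 was found in 34 of the 34 cells, and Ms4a2, Cpa3 and Fcer1a, which basophils and mast cells share, in 28 each. The basophil protease Mcpt8 was found in 21, whereas the mast cell proteases Cma1 and Mcpt4 were found in 0. Cells with an Mcpt8 UMI anywhere in a library numbered 9 and 10 in WT compared with 2 and 0 in ERG CKO.

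The class held 65.7% and 60.7% of all Ccl3 UMIs in WT and 20.5% and 0% in ERG CKO. Its share of Ccl4 UMIs was 66.5% and 60.1% in WT compared with 21.7% and 0% in ERG CKO. Summed over all cells, Ccl3 was at 198 and 216 CPM in WT and at 107 and 53.5 CPM in ERG CKO (log2 fold change -1.37, SE 0.32, edgeR adjusted p = 0.389, DESeq2 0.0011). Leaving out ERG CKO 1 also took it past the threshold (edgeR adjusted p = 0.048), whereas leaving out ERG CKO 2 (0.18), WT 1 (0.947) or WT 2 (0.624) did not. Ccl4 was at 267 and 334 CPM in WT and at 155 and 153 CPM in ERG CKO (log2 fold change -0.97, SE 0.16, edgeR adjusted p = 0.231, DESeq2 9.7e-05). The groups did not overlap for either gene. Without the class, which was an alternative chosen after the data were seen, Ccl3 was at 68.3 and 85.2 CPM in WT and at 84.9 and 53.5 CPM in ERG CKO, and the groups overlapped. Ccl4 without the class was at 89.8 and 134 CPM in WT and at 122 and 153 CPM in ERG CKO, with a log2 fold change of 0.29 (edgeR adjusted p = 0.936).

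**Figure D5:**
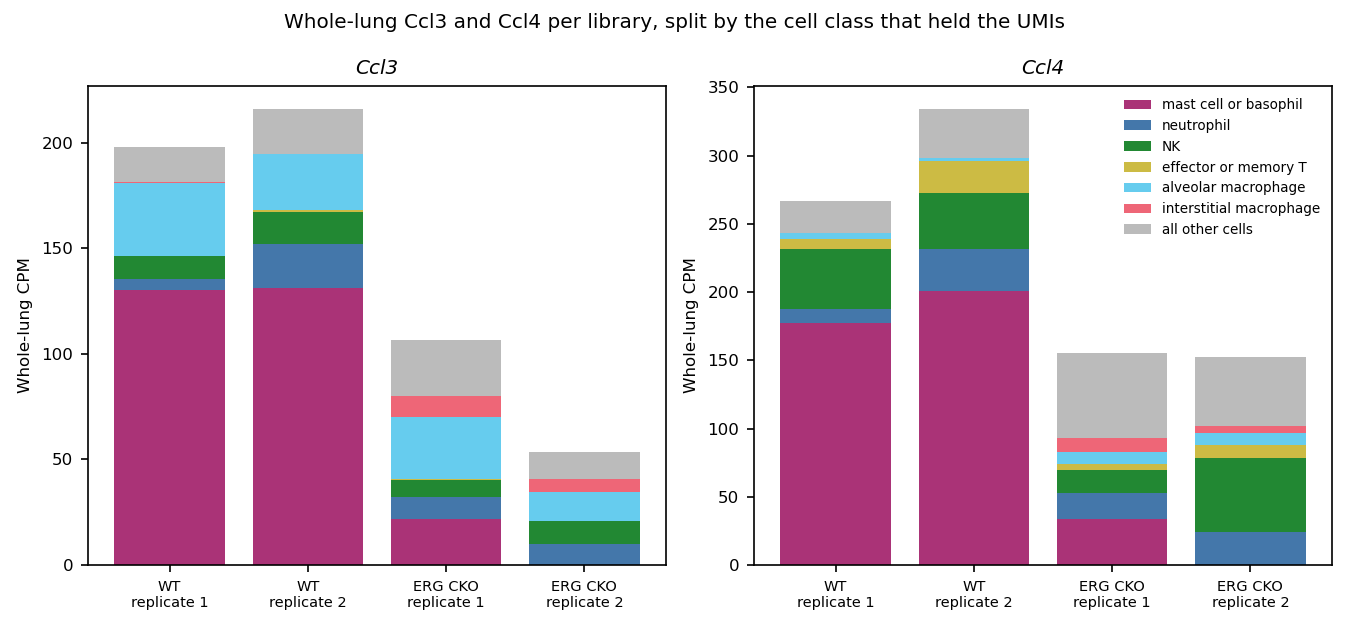
Whole-lung Ccl3 and Ccl4 (CPM) in each library, stacked by the cell class that holds the UMIs. The mast cell or basophil part is the largest in both WT libraries, is smaller in ERG CKO 1 and is absent from ERG CKO 2.

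Ccl3 and Ccl4 in other classes were far lower. In neutrophils, Ccl3 lay at 669 and 1588 CPM in WT and at 641 and 380 CPM in ERG CKO, without overlap but with a gap between the nearest libraries smaller than the spread of either group (log2 fold change -1.12, SE 0.40, edgeR adjusted p = 0.653). Ccl4 in neutrophils lay at 1355 and 2333 CPM in WT and 1157 and 906 CPM in ERG CKO (log2 fold change -0.81, SE 0.28, edgeR adjusted p = 0.653). Both passed the threshold when ERG CKO 1 was left out (edgeR adjusted p = 0.00016 for Ccl3 and 0.036 for Ccl4) or WT 1 (3.5e-06 and 0.0045), and neither passed without ERG CKO 2 (0.30 and 0.47) or without WT 2 (0.877 and 0.862), where the log2 fold changes were -0.32 and -0.33. Neutrophils made up 1.63% and 2.37% of cells in WT and 2.49% and 4.64% in ERG CKO. In NK cells, Ccl4 was at 1153 and 2084 CPM in WT and 1051 and 1328 CPM in ERG CKO, where the groups overlapped (log2 fold change -0.44, SE 0.20, edgeR adjusted p = 0.993). This value rests on WT 2: without it the log2 fold change was 0.039, and without WT 1 it was -0.83 (edgeR adjusted p = 0.00015). Effector or memory T cells had Ccl4 at 917 and 886 CPM in WT and 390 and 545 CPM in ERG CKO, with no overlap (log2 fold change -0.93, SE 0.24, edgeR adjusted p = 0.26).

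Macrophages went the other way for Ccl4. Alveolar macrophages had 24.3 and 15.4 CPM in WT and 72.4 and 52.9 CPM in ERG CKO. The groups did not overlap, and the log2 fold change was 1.61 (SE 0.23, edgeR adjusted p = 0.128). Of these cells, 14.3% and 15.4% in WT compared with 18.5% and 18.7% in ERG CKO had a Ccl4 UMI, against 4.26% of AT2 cells, which should lack the gene and were deeper (median 23391 against 16075 UMIs). Whether this test was called depended on the setting and on the libraries kept. One setting was a block that pairs same-numbered libraries, which share sex but which no label ties. The test was called with that block, with at most 10% mitochondrial UMIs, with no low-count filter and with adjustment over all classes. It was not called with DESeq2, without doublets, with no alignment or at either other resolution. Its edgeR adjusted p was 0.048 without a sub-cluster of 8, 13, 21 and 10 alveolar macrophages led by B and T cell genes, an alternative chosen after the data were seen, under which 0.0111% of genes were called. It was 1.2e-05 without ERG CKO 1, 3.3e-05 without ERG CKO 2, 0.663 without WT 1 and 0.933 without WT 2, while the log2 fold change stayed between 1.36 and 2.03. Over all macrophages together, Ccl4 lay at 23.5 and 15.5 CPM in WT and 143 and 99.0 CPM in ERG CKO and was called (log2 fold change 2.60, SE 0.24, edgeR adjusted p = 0.019, where 0.0212% of genes were called). Interstitial macrophages, which were more numerous in ERG CKO and held much Ccl4 there, are named from a clustering of all myeloid cells, so the make-up of the pooled class and the level per cell cannot be told apart in this value.

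Interstitial macrophages had too few cells for a test. They numbered 10 and 6 in WT compared with 38 and 18 in ERG CKO, with medians of 6758 and 8917.5 UMIs compared with 1164.5 and 4782.5, and the part of this depth in the results was not tested. Ccl4 had 0 UMIs in both WT libraries and 200 and 62 UMIs in ERG CKO, from 8 and 6 cells. Ccl3 in the same cells was at 23.0 and 88.9 CPM in WT and 1344 and 777 CPM in ERG CKO, and the groups did not overlap for either gene. In ERG CKO 1 the highest cell gave 94 of the 200 Ccl4 UMIs, and in ERG CKO 2 it gave 29 of the 62. Type 2 conventional dendritic cells had Ccl4 at 477, 359, 740 and 351 CPM in WT 1, WT 2, ERG CKO 1 and ERG CKO 2, so that the groups overlapped.

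Ccl5, which recruits T cells and monocytes, was carried by cytotoxic lymphocytes in both groups. Effector or memory T cells had 35978 and 33412 CPM in WT and 25536 and 27577 CPM in ERG CKO. WT libraries were the higher ones, without overlap, but the difference was not called (log2 fold change -0.36, SE 0.19, edgeR adjusted p = 0.975). It was called when WT 1 or WT 2 was left out (edgeR adjusted p = 0.0079 and 0.0081), with values of -0.38 and -0.34. NK cells had 22050 and 22393 CPM in WT and 26799 and 19304 CPM in ERG CKO, which enclosed the WT values (log2 fold change 0.041, SE 0.12, edgeR adjusted p = 0.994). Without ERG CKO 1 the NK value was -0.24. A Ccl5 UMI was present in 97.6% of effector or memory T cells and 100% of NK cells, against 8.51% of AT2 cells. Proliferating cells, the third source, had 1195, 2179, 466 and 2167 CPM in the order WT 1, WT 2, ERG CKO 1 and ERG CKO 2.

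Dendritic cells showed more Ccl5 in ERG CKO than in WT, from few cells. Over the whole dendritic class it lay at 17.2 and 38.6 CPM in WT and 302 and 334 CPM in ERG CKO, and it was called (log2 fold change 3.43, SE 0.31, edgeR adjusted p = 0.0012, where 0.734% of genes were called). Type 2 conventional dendritic cells, which came from a finer clustering of all myeloid cells and so do not nest in that class, had 10.96 and 247 CPM in WT and 548 and 459 CPM in ERG CKO, without overlap. There 1 cell gave 190 of 569 UMIs in ERG CKO 1 and 1 cell gave 183 of 188 in ERG CKO 2. In B cells, 1 cell likewise held 119 of 130 UMIs in WT 2 and 1 cell 295 of 314 in ERG CKO 1.

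Ccl6 and Ccl9, a pair of mouse chemokines that signal through Ccr1, were products of myeloid cells. The study itself had picked Ccl6 from these libraries, as a fibrogenic mediator that was raised in immune cells of ERG CKO lungs. It tested cell by cell, whereas the tests here take the library as the unit. Alveolar macrophages held 73.9% to 82.3% of all Ccl6 UMIs of a library, and 99.7% of them had a Ccl6 UMI against 4.01% of T cells. Ccl6 in these cells was at 3803 and 4168 CPM in WT and 4944 and 4538 CPM in ERG CKO. ERG CKO lay higher without overlap, by a log2 fold change of 0.26 (SE 0.10) that was not called (edgeR adjusted p = 0.861). With same-numbered libraries paired as a block it was called (0.26, edgeR adjusted p = 0.0062). These pairs share sex, but no label ties them. Neutrophils had Ccl6 at 1787 and 1806 CPM in WT and at 2715 and 2791 CPM in ERG CKO. That gap was far wider than the spread within either group. The change (log2 fold change 0.65, SE 0.17) was not called (edgeR adjusted p = 0.598), nor was it with the block (edgeR adjusted p = 0.794). It was called with no filter on low counts (edgeR adjusted p = 0.013). The mast cell or basophil class had Ccl6 at 3694, 5127 and 4894 CPM in WT 1, WT 2 and ERG CKO 1, close to the level of alveolar macrophages, which were the higher ones in WT 1 and ERG CKO 1 and the lower ones in WT 2. Summed over all cells, Ccl6 was at 942 and 716 CPM in WT and 800 and 972 CPM in ERG CKO, with overlap.

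Ccl9 was highest in the mast cell or basophil class, at 2968, 4344 and 3206 CPM in WT 1, WT 2 and ERG CKO 1. Classical monocytes came next and hardly differed between libraries, at 632 and 617 CPM in WT and 637 and 669 CPM in ERG CKO (log2 fold change 0.07, SE 0.14, edgeR adjusted p = 1.0). Of classical monocytes, 89.0% had a Ccl9 UMI, against 0.608% of T cells. Interstitial macrophages had 311 and 222 CPM in WT and 260 and 144 CPM in ERG CKO, and the groups overlapped. Over all cells Ccl9 was at 59.3 and 83.2 CPM in WT and 77.0 and 61.7 CPM in ERG CKO, again with overlap.

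Ccl2 and Ccl7, ligands of Ccr2 that mobilise monocytes, were made by few cells in every library, so their levels hung on single cells. The 10 highest cells held 59.0% to 85.7% of the Ccl2 UMIs of a library. In interstitial macrophages Ccl2 was at 253 and 22.2 CPM in WT and 831 and 433 CPM in ERG CKO, without overlap, but 1 cell gave 79 of 115 UMIs in ERG CKO 1 and 1 cell gave 34 of 39 in ERG CKO 2. Type 2 conventional dendritic cells had Ccl2 at 323 and 224 CPM in WT and 235 and 373 CPM in ERG CKO, with overlap. Classical monocytes had 49.6 and 187 CPM in WT and 58.5 and 244 CPM in ERG CKO, with overlap and a spread within each group of more than 3-fold (log2 fold change 0.24, SE 0.60, edgeR adjusted p = 1.0). That sign turned without WT 1, at -0.35, and without ERG CKO 2, at -1.13. Over all cells Ccl2 was at 12.1 and 18.6 CPM in WT and 24.7 and 29.1 CPM in ERG CKO, higher without overlap but not called (log2 fold change 0.80, SE 0.25, edgeR adjusted p = 0.547). A Ccl2 UMI was found in 16.7% of interstitial macrophages and 0.182% of T cells.

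Ccl7 was the rarest of the macrophage members. Its UMIs numbered 16 and 29 in WT compared with 83 and 2 in ERG CKO over all cells, so ERG CKO held both the highest and the lowest library. Interstitial macrophages had 14 and 1 of these UMIs in WT and 64 and 1 in ERG CKO. Adventitial fibroblasts were the next source, with 0 and 13 UMIs in WT compared with 6 and 0 in ERG CKO, each positive library through 1 cell. Lymphatic ECs had 1 Ccl7 UMI in all. The whole-lung log2 fold change was 0.59 (SE 1.09, edgeR adjusted p = 0.991), and it was -3.13 without ERG CKO 1.

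Ccl17 and Ccl22, the Ccr4 ligands, shared their source in type 2 conventional dendritic cells but not their order among libraries. Ccl17 in these cells lay at 772 and 1145 CPM in WT and at 518 and 327 CPM in ERG CKO, with no overlap. Over all dendritic cells it was at 624 and 772 CPM in WT and 452 and 238 CPM in ERG CKO, which was not called (log2 fold change -0.9995, SE 0.27, edgeR adjusted p = 0.162). The class held 50.7% and 96.1% of Ccl17 UMIs in WT and 87.8% and 94.4% in ERG CKO. This source depended on the clustering, since without alignment of the libraries the mean WT share of the class was 49.7% for Ccl17 (73.4% with it) and 19.2% for Ccl22 (43.4% with it). Type 2 conventional dendritic cells made up 0.663% and 0.977% of the cells in WT and 2.39% and 1.51% in ERG CKO. Summed over all cells, Ccl17 was at 18.9 and 23.2 CPM in WT and 32.9 and 12.6 CPM in ERG CKO, with overlap. Type 1 conventional dendritic cells had 311 and 20.8 CPM in WT and 48.1 and 13.3 CPM in ERG CKO, and the group values overlapped. Among proliferating cells the 4 libraries had 131, 10.8, 78.2 and 0 CPM in the order above.

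Ccl22 in type 2 conventional dendritic cells was at 76.7 and 57.8 CPM in WT and 194 and 22.0 CPM in ERG CKO, so ERG CKO held the highest and the lowest value. These levels rest on 14, 15, 202 and 9 UMIs in WT 1, WT 2, ERG CKO 1 and ERG CKO 2, of which the top cell gave 14, 10, 82 and 5. Type 1 conventional dendritic cells had 0, 3, 4 and 0 UMIs and proliferating cells 6, 0, 16 and 0. Over all cells Ccl22 was at 1.97 and 2.93 CPM in WT and 13.1 and 2.49 CPM in ERG CKO (log2 fold change 1.70, SE 0.77, edgeR adjusted p = 0.72). ERG CKO 2 lay between the WT libraries, so this change rested on ERG CKO 1. The class is mixed, since its leading genes include the plasmacytoid marker Siglech and the migration receptor Ccr7. Genes known from mature migrating dendritic cells are given for its 138 cells with libraries pooled, as a description with no test. Ccr7 was found in 14 of the 30 cells with a Ccl22 UMI and in 17 of the other 108 cells, Fscn1 in 5 and 2, Relb in 19 and 34, Cd274 in 11 and 14, and Tmem123 in 23 and 75. The median depth was 14377.5 and 13020.5 UMIs.

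The rest of the CC chemokine system gave 1 call. Of 13 further ligands listed, 11 had a row in the matrix, and none of the 5 tests in classes or 8 in whole-lung sums was called by edgeR, with 0 at an unadjusted p under 0.05. DESeq2 also called 0 of them, with 0 and 2 at an unadjusted p under 0.05. Of 30 tests of the receptors in classes, edgeR called 1, Ackr4 in gCap ECs, with 5 at an unadjusted p under 0.05. Ackr4 is an atypical receptor that scavenges Ccl19, Ccl21 and Ccl25. It lay at 26.2 and 31.5 CPM in WT and 6.27 and 9.61 CPM in ERG CKO, from 36, 49, 10 and 10 UMIs. WT was higher without overlap, at a log2 fold change of -1.94 (SE 0.34, edgeR adjusted p = 0.014). In gCap ECs 1.76% of genes were called. The call was lost with DESeq2 (adjusted p = 0.197), with no alignment of the libraries (-1.16, edgeR adjusted p = 0.555), when cells were thinned (0.212), without WT 1 (edgeR adjusted p = 0.08) and without WT 2 (0.151). Over all cells Ackr4 had 67 and 83 UMIs in WT compared with 19 and 22 in ERG CKO and was not called (edgeR adjusted p = 0.345). Of the 13 receptors tested there edgeR called 0, with 1 at an unadjusted p under 0.05, and DESeq2 called 0.

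Genes whose pattern across the 29 classes was most like that of a member, by Pearson r of log2 mean CPM with 10 added, were named for each member, with members left out. They were Gzma (0.93), Nkg7 (0.91) and Gzmb (0.91), genes of cytotoxic granules, for Ccl5. For Ccl6 they were Csf2rb (0.94), Osm (0.94) and Nlrp3 (0.92), and for Ccl9 Emilin2 (0.86), Igsf6 (0.85) and Csf2rb2 (0.84). Ccl3 was nearest to Osm (0.90), Lilr4b (0.89) and Lilrb4a (0.87), and Ccl4 to Atp8b4 (0.84), 4833407H14Rik (0.82) and Gm21975 (0.82). Macrophage genes were nearest to Ccl7, with Ccl8 at 0.93, C1qb at 0.83 and C1qa at 0.82, and Clec10a (0.88), Aif1 (0.86) and Ppfia4 (0.85) were nearest to Ccl2. Upb1 and Cd209d were shared by the dendritic pair, at 0.92 and 0.85 for Ccl17 and at 0.94 and 0.92 for Ccl22. The third was Hepacam2 (0.88) for Ccl17 and Klk1 (0.90) for Ccl22. Values for Ccl21a, nearest to Duox2, Nts and Hoxd9, were all above 0.99 because these genes are near 0 in every class but 1. Gzma, Nkg7, C1qa, C1qb, Clec10a, Cd209d, Klk1 and Nts were also markers used to name classes. Their likeness therefore partly restates which class leads for a member.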

How the data were processed

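The data were 2 WT and 2 ERG CKO single-cell libraries of whole lung. The authors digested the lungs (Liberase and DNase in the methods, a dissociation kit in the design text), captured cells on the 10x Genomics GemCode platform and sequenced them on an Illumina NextSeq instrument. Per the submitters' processing notes, Cell Ranger 3.1.0 and build mm10 were used. The deposited matrix holds whole-number UMI counts that were not normalized, in 20076 rows (genes) and 9363 columns (cell barcodes), of which 14 occur in more than 1 library. Depth was 14714193, 13301217, 18646776 and 11263911 UMIs in WT 1, WT 2, ERG CKO 1 and ERG CKO 2. Precision was limited by the few cells of rare classes and by 2 libraries per group. The deposited matrix holds more barcodes than the study kept after its quality filter, whose limits were not given in the sources used here, and no cell was removed. Replicates of a group differed by more than sampling noise (chi-square per degree of freedom 16.9 and 18.5). Replicate 1 of each group expressed Xist and replicate 2 Ddx3y, so sex was balanced.

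The 10 members, the pathway lists and the markers were chosen with earlier results of these data known. Cells were clustered in Seurat 5.3.0 (2000 variable genes without chemokines and their receptors, CCA alignment, 30 dimensions, resolution 0.8, sub-clustering of compartments such as all myeloid cells at 20 dimensions) and named from marker lists, needing at least 3 markers. The study tested cell by cell in the BioTuring browser, its cell annotation was not used here, and since class names were rebuilt, values may differ from the study's for that reason alone. Scrublet (scanpy 1.11.5) called 66 doublets (0.705%), which were kept and left out in an alternative.

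Counts were summed per library and class and tested by quasi-likelihood in edgeR 4.0.16 (TMM, filterByExpr, Benjamini-Hochberg adjusted p of at most 0.05 over all genes of a class) in R 4.3.3, in classes with at least 20 cells in each library. SE is the size of the log2 fold change divided by the square root of F. The scripts were tested on simulated data. Shares of cells were compared by exact permutation (scipy 1.17.1). Coordinates are from the GRCm38 annotation, and promoters are from RefSeq. All members are named in their 3 leading classes and wherever called, with the 3 genes most like each, and other pathway genes only where called. Lymphatic markers besides Prox1, basophil markers and the members' other classes were added to the text after their values were seen. Alternatives were DESeq2 1.42.0, no low-count filter, each library left out, a replicate block, doublets or cells over 10% mitochondrial UMIs left out, thinning to 1000 UMIs, the highest cell left out, no alignment, resolutions 0.4 and 1.2, first-level classes, and adjustment over all classes.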

Additional observations from a re-analysis of the deposited data

Results flagged for a closer look

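The ERG CKO against WT contrast of Ccl4 differed between alveolar macrophages, where its fitted log2 fold change was above 0, and 3 lymphoid or granulocyte classes, where it was below 0, with none of the 4 called. In NK cells the sign turned to 0.039 without WT 2. A test of the difference itself (edgeR, library as a block) was chosen after the data were seen, these signs included. It gave a log2 difference of 2.55 (SE 0.30, edgeR adjusted p = 1.7e-14) against effector or memory T cells. Against neutrophils it was 2.23 (SE 0.35, edgeR adjusted p = 3.5e-07) and against NK cells 1.96 (SE 0.26, edgeR adjusted p = 2.2e-10). The genes tested numbered 8880, 8381 and 9042 in that order, of which 9, 18 and 14 were called. The log2 ratio of alveolar macrophages over the other class was lower in both WT than in both ERG CKO libraries, at -5.24 and -5.85 against -2.43 and -3.37 for effector or memory T cells, -5.80 and -7.24 against -3.997 and -4.10 for neutrophils, and -5.56 and -7.08 against -3.86 and -4.65 for NK cells. By exact permutation of these 4 ratios the two-sided p was 0.333 in each case, the smallest that 2 libraries against 2 can give. In WT the alveolar macrophage counts are small, at 73 and 26 Ccl4 UMIs.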

How the results depend on the processing

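Over all genes, 1.43% of 64836 tests in cell classes were called in the main setting, where 28 tests were of members. With at most 10% mitochondrial UMIs the share was 1.44% of 64299 (28 of members), and without doublets 1.45% of 64536 (27 of members). In first-level classes the share was 0.573% of 74107 (39 of members). The count of members called across cell classes was 0. It stayed at 0 with DESeq2, thinning, no alignment, either other resolution and without the highest cell. It was 1 with at most 10% mitochondrial UMIs (Ccl4 in alveolar macrophages), 1 without doublets (Ccl5 in B cells), 1 when p-values were adjusted over all classes together (Ccl4 in alveolar macrophages), 3 in first-level classes (Ccl5 in dendritic cells, Ccl21a in ECs, Ccl4 in macrophages), 6 with no filter on low counts (of 86 tests, where 1.1499% of all tests were called) and 3 to 7 when 1 library was left out (of 33 to 36 tests, where 0.969% to 2.05% of all were called), where the lone library of a group is assumed to vary like the others. In whole-lung sums the count was 0, and 3 with DESeq2, no filter or thinning (0.733%, 0.683% and 0.343% of genes called), and 0 to 2 with 1 library left out (0.0068% to 0.173%). With the replicate block, 4 of 28 were called in classes, where 2.83% of all tests were (edgeR adjusted p = 8.2e-15 for Ccl4, 0.00019 for Ccl5 and 0.0062 for Ccl6 in alveolar macrophages and 0.0094 for Ccl4 in effector or memory T cells) and 0 in whole-lung sums. The deviations of same-numbered libraries correlated at r = 0.27 over 8835 genes, but there are only 2 pairs and no label ties them, although same-numbered libraries also share the sex seen in Xist and Ddx3y. The cause of these moves was not tested.

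Erg in gCap ECs turned to -0.11 when cells were thinned. Among 294 alternatives of 21 member and class results, 241 kept direction and side of the threshold, 30 newly passed it, 5 (all Ackr4 in gCap ECs) no longer passed it and 18 changed sign, each of them uncalled. Ccl2 in classical monocytes turned to -0.25 in first-level classes, -0.14 without the highest cell, -1.13 without ERG CKO 2 and -0.35 without WT 1 (range -1.13 to 1.59 with 1 library left out). Ccl9 in classical monocytes turned to -0.054 and -0.070 in first-level classes and when thinned. In NK cells, Ccl4 turned to 0.039 without WT 2 (range -0.83 to 0.039) and Ccl5 to -0.24 without ERG CKO 1. In whole-lung sums, Ccl7 (-3.13, range to 1.45), Ccl5 (0.13, range from -0.71) and Ccl17 (-0.74, range to 0.64) turned without ERG CKO 1, Ccl6 (-0.046) and Ccl9 (0.11) without ERG CKO 2, Ccl6 (-0.047) and Ccl9 (0.27, range from -0.30) without WT 2, and Ccl17 (-0.050) without WT 1. Without the mast cell or basophil class, Ccl4 (0.29) and Ccl9 (0.32) turned. Ccl21a in lymphatic ECs of ERG CKO, as a percentage of WT, ranged from 0 to 1.12 over the alternatives that kept a lymphatic class. Without alignment there was none, so no value could be given. Rare classes and 2 libraries per group both limit precision.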
